A study of Anas platyrhynchos with 11 samples.

Results

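The granins and the enzymes that process prohormones were followed in Meissner corpuscles and bill skin of the duck (Anas platyrhynchos). The members were 8 genes chosen by name, of which 7 were found among the 16823 gene names of the table: the granins CHGB, CHGA, SCG3 and SCG2, the carboxypeptidase CPE and the prohormone convertases PCSK1 and PCSK2. SCG5, the chaperone of PCSK2, was not analysed here. The genes were chosen with their corpuscle and skin levels already known, so those levels and the folds between the tissues are given as a description, with no test.

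Granins are acidic proteins of dense-core granules, the storage organelles from which neurons and endocrine cells release peptides and amines. They aggregate with the cargo as granules form, and some of them are themselves cut into peptides. PCSK1 and PCSK2 cut prohormones after pairs of basic residues, and CPE removes the basic residues left at the new ends. In skin, granins are best known from Merkel cells and from nerve endings.

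Meissner corpuscles, also named Grandry corpuscles in birds, are touch end organs in which the ending of a sensory axon lies between lamellar cells. For each of 5 corpuscle libraries, 2 to 10 corpuscles were drawn from bill skin into a pipette, and for each of 6 bill skin libraries nearby cells without corpuscles were taken. The labels give no strain, age or treatment for either group, and although they mention 3 isolations of skin they do not say which library came from which, so each p-value reflects how far these libraries vary, part of which may be technical. The RNA of corpuscles had integrity numbers of 6.1 to 8.0. A low-input kit was used for every corpuscle library and the Kapa mRNA Hyper Prep kit for every skin library, and a difference of tissue cannot be told apart from one of kit.

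Total counts ran from 5766279 to 11886808 in corpuscles and from 13263776 to 20925841 in skin. Counts were found for 16252 to 16379 genes per corpuscle library and for 14825 to 15148 genes per skin library. Corpuscles 4 and 5 scored lower than corpuscles 1 to 3 on the second principal component (13.8% of the variance). Their scores were -121 and -25.9, against 48.7 to 52.6, so corpuscle 5 lay between corpuscle 4 and the rest. Skin 5 and 6 scored -8.52 and -12.1, against 1.1 to 7.99 for skin 1 to 4. A named fold is therefore also given for subsets of libraries where either subset moved it by over 1.5 times. The first subset holds corpuscles 1 to 3 with skin 1 to 4, and the second corpuscles 4 and 5 with skin 5 and 6. The subsets follow these scores and are not known batches. The scores come from these same counts, so part of a difference between the subsets may be built in. Levels are in CPM, counts per 1000000 on library sizes scaled by TMM factors, and a level compared between genes is in CPM per kilobase of the gene's length. Each log2 fold change is the corpuscle level minus the skin level, and its standard error (SE) is that of the edgeR fit.

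CHGB, chromogranin B, was the most abundant gene of the corpuscles. It was at 38216, 68365, 50208, 12605 and 39236 CPM in corpuscles 1 to 5, against a range of 739 to 1550 CPM with a median of 1354 CPM in the 6 skin libraries. The groups did not overlap: the lowest corpuscle library, corpuscle 4, lay 8.13 times above the highest skin library. CHGB averaged 41726 ± 20298 CPM in corpuscles (SD, n = 5) and 1286 ± 323 CPM in skin (SD, n = 6), a ratio of means of 32.4 and a log2 fold change of 5.02 ± 0.38 (SE). It ranked first by CPM in corpuscles 1, 2, 3 and 5 and at 4 in corpuscle 4, and at 31 to 110 in skin libraries. Per kilobase its mean ranked 2 in corpuscles, at 7036 CPM per kilobase, behind the chemokine gene CXCL14 at 9725 CPM per kilobase. On the log2 scale the fold was 5.38 in the first subset and 4.39 in the second. In bulk samples of this kind, more cells of a type and more RNA per cell cannot be told apart.

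CHGA, chromogranin A, the granin used most widely as a marker of neuroendocrine cells, was at 2025, 5767, 1340, 1020 and 705 CPM in corpuscles 1 to 5, and at 85.7 to 319 CPM in skin with a median of 189 CPM. All 5 corpuscle libraries lay above all skin libraries, the lowest by a factor of 2.21, and corpuscle 2 stood far above the other corpuscles. Its log2 fold change was 3.48 ± 0.51 (SE). Leaving out corpuscle 2 gave 2.70. The first subset gave 4.11 and the second 1.92.

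SCG3, secretogranin III, which holds other granins at the granule membrane, was at 301, 327, 454, 151 and 347 CPM in corpuscles 1 to 5, and at 25.3 to 35.1 CPM in skin with a median of 31.2 CPM. The groups were separate and corpuscle 4 was again the lowest corpuscle library. The log2 fold change was 3.37 ± 0.26 (SE). SCG2, secretogranin II, the precursor of the peptide secretoneurin, was at 157, 67.9, 230, 84.2 and 81.7 CPM in corpuscles 1 to 5, and at 5.85 to 10.4 CPM in skin with a median of 8.77 CPM. Its lowest corpuscle library was corpuscle 2, the library in which CHGB and CHGA were highest. The log2 fold change was 3.89 ± 0.35 (SE).

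**Figure D1:**
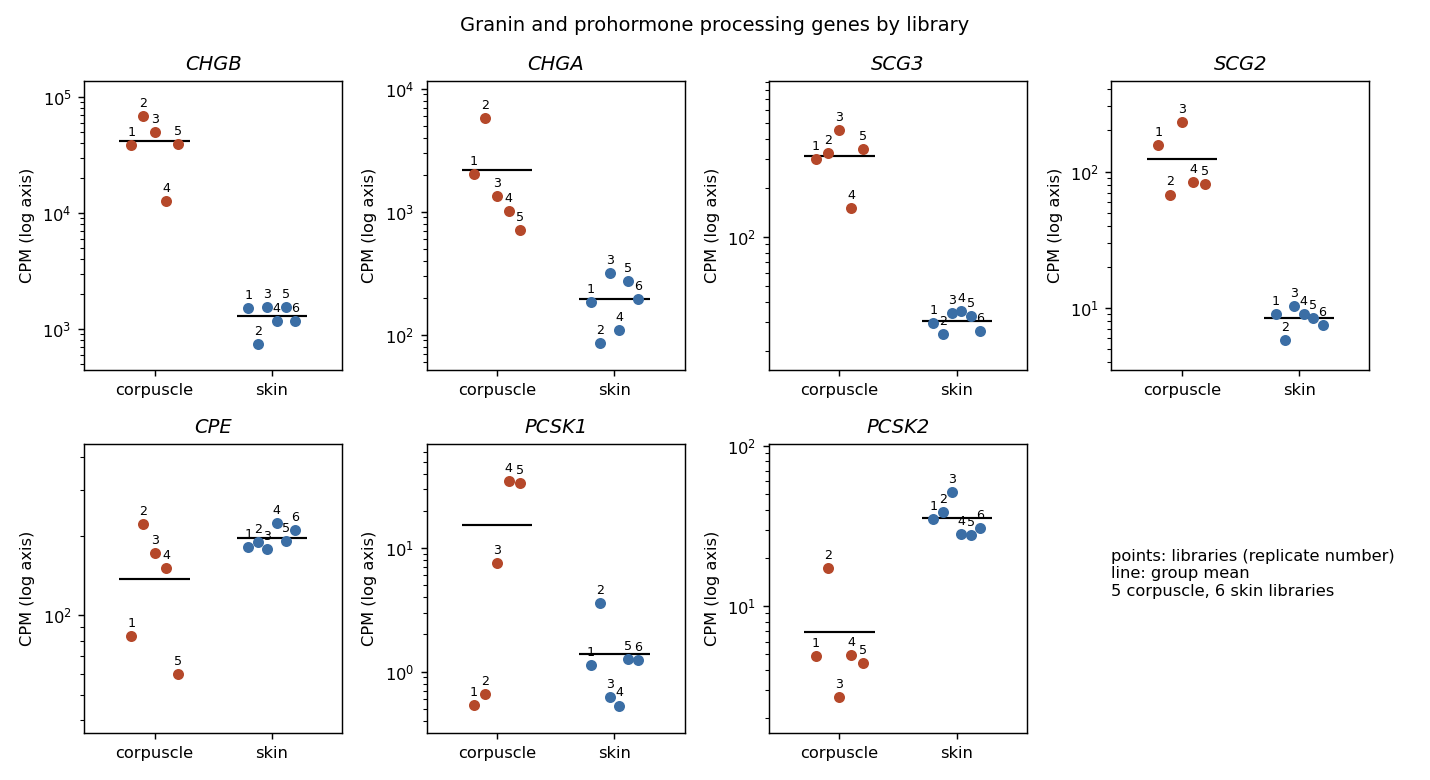
Level of each of the 7 genes in every library, in CPM on a log axis (a range of its own per panel); points are libraries numbered by replicate, lines are group means, with 5 corpuscle libraries left of 6 skin libraries. The 4 granins are separate and higher in corpuscles, PCSK2 is separate and lower (2.69 to 17.4 against 27.9 to 51.6 CPM), and CPE and PCSK1 overlap between the groups.

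CPE, the carboxypeptidase, did not follow the granins. It was at 83.3, 223, 172, 151 and 59.6 CPM in corpuscles 1 to 5, and at 178 to 224 CPM in skin with a median of 191 CPM. The groups overlapped, with 4 corpuscle libraries below all skin libraries and corpuscle 2 within the skin range. CPE averaged 138 ± 66.7 CPM in corpuscles (SD, n = 5) and 196 ± 17.8 CPM in skin (SD, n = 6), a log2 fold change of -0.51 ± 0.29 (SE).

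PCSK2, the convertase of later granule stages, was lower in corpuscles. It was at 4.88, 17.4, 2.69, 4.92 and 4.41 CPM in corpuscles 1 to 5, and at 27.9 to 51.6 CPM in skin with a median of 32.9 CPM. Each corpuscle library lay below each skin library, by a factor of at least 1.60, and corpuscle 2 was the highest corpuscle library. The skin mean was 5.15 times the corpuscle mean, and the log2 fold change was -2.36 ± 0.46 (SE), or -3.07 without corpuscle 2.

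PCSK1, the convertase of early granules, split the corpuscle libraries. It was at 0.533, 0.659, 7.51, 34.9 and 33.7 CPM in corpuscles 1 to 5, and at 0.531 to 3.56 CPM in skin with a median of 1.18 CPM. Corpuscles 1 and 2 lay within the skin range, and corpuscles 3, 4 and 5 lay above it. The values of corpuscles 1 and 2 rest on 6 and 7 reads, with exact 95% binomial intervals of 0.195 to 1.16 and 0.265 to 1.36 CPM, against 220 and 374 reads in corpuscles 4 and 5. The highest corpuscle library was 65.5 times the lowest, and the SD of the log2 level over corpuscles was above that of 99.6% of the 14638 genes tested. The log2 fold change of 3.45 ± 0.92 (SE) therefore covers unlike libraries: the first subset gave 0.95 and the second 4.83. It was 2.57 with replicate number as a block and 2.06 with limma-voom.

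All 7 genes passed the filter on low counts. By edgeR's quasi-likelihood test at a Benjamini-Hochberg adjusted p of 0.05 over all genes, 5 of the 7 were called higher in corpuscles, beside 33.0% of the 14638 genes tested, and 1 was called lower, beside 23.5%. In either direction 56.4% of all genes were called. Libraries of the groups were separate with corpuscles above for 4 of the 7, beside 22.3% of all genes, and with corpuscles below for 1, beside 19.0% (41.3% in either direction). The median log2 fold change was 3.45 over the 7 genes and 0.18 over all genes tested. These counts follow from the choice of the genes, and nothing is read from them. The authors' deposited table has the same direction for all 7, its log2 fold changes differing from these by at most 0.09 once its sign, skin relative to corpuscle, is turned. It describes the same libraries, and the submitters also name edgeR, so this closeness is no separate support.

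**Figure D2:**
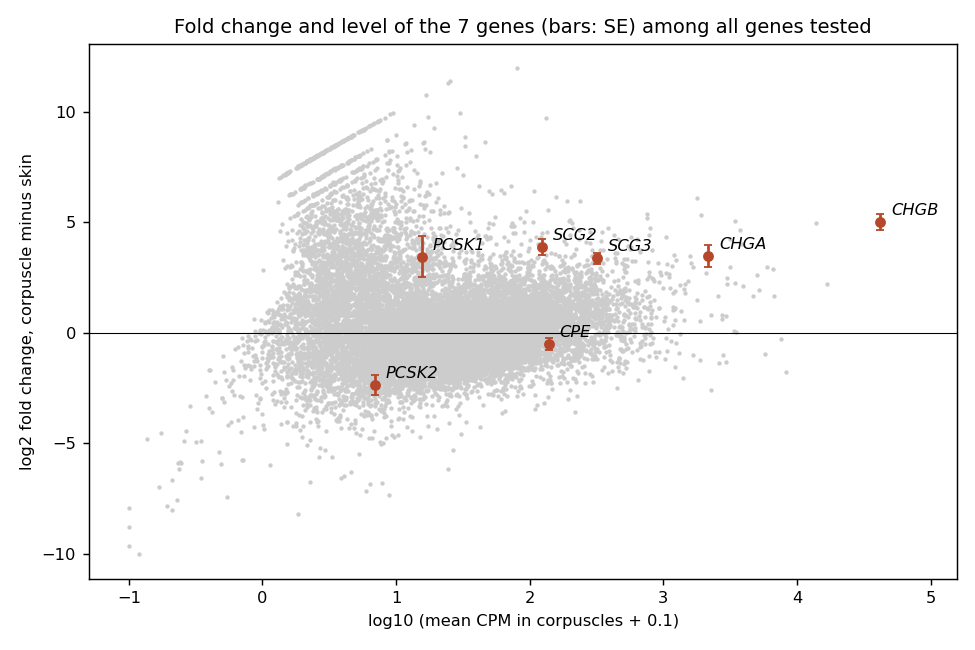
Log2 fold change (corpuscle minus skin) against log10 of the mean CPM in corpuscles plus 0.1; grey points are the 14638 genes tested, and the 7 genes are shown with SE bars. CHGB lies at the far right with a fold change of 5.02, CHGA, SCG2, SCG3 and PCSK1 lie between 3.37 and 3.89, CPE is near 0 and PCSK2 at -2.36.

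The 4 granins together took 3.93, 7.04, 4.74, 1.52 and 3.93% of all counts in corpuscles 1 to 5, and 0.0908 to 0.193% in skin. The mean was 4.23 ± 1.98% in corpuscles (SD, n = 5) and 0.155 ± 0.0412% in skin (SD, n = 6), and 95% Wilson intervals were no wider than 0.015 percentage points to either side. Such intervals cover counting error only. CHGB supplied 90.9 to 97.2% of granin counts in corpuscles and 81.0 to 88.4% in skin. The other granins summed to 0.11 to 0.582% of counts in corpuscles and to 0.0124 to 0.0367% in skin.

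**Figure D3:**
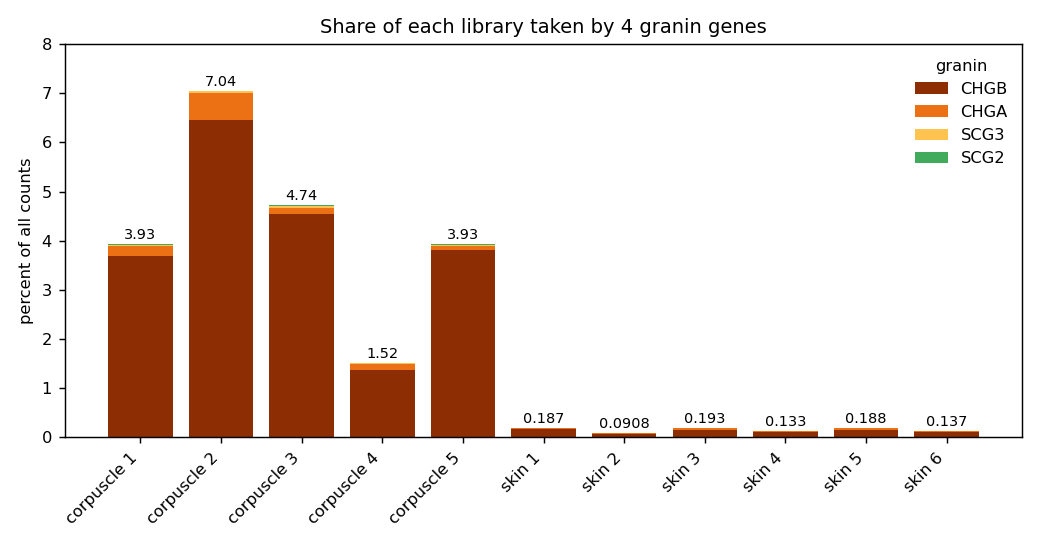
Percent of all counts in each library taken by CHGB, CHGA, SCG3 and SCG2, stacked, with the sum above each bar; corpuscles 1 to 5 are left of skin 1 to 6. The corpuscle bars reach 1.52 to 7.04% and the skin bars stay at or under 0.193%, and CHGB makes up most of every bar.

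The make-up of the granins does not depend on how a library is scaled. Per kilobase, CHGB was 84.3, 78.9, 90.2, 77.9 and 92.9% of the granin sum in corpuscles 1 to 5 and 59.4 to 73.6% in skin, with no overlap. SCG3 was 0.729 to 1.81% in corpuscles and 2.51 to 4.61% in skin, also with no overlap, while SCG2, at 0.184 to 1.22% in corpuscles and 0.805 to 1.33% in skin, overlapped. CHGB was 3.91 to 18.3 times CHGA per kilobase in corpuscles and 1.60 to 3.53 times in skin, again with no overlap. SCG3 was 1.48 to 3.97 times SCG2 per kilobase in corpuscles and 2.68 to 3.57 times in skin, so the skin range lay inside the corpuscle range. Each of these ratios uses the values that chose the genes and has no test.

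Among the enzymes, CPE led in every library. Per kilobase it was 67.2 to 95.4% of the sum of CPE, PCSK1 and PCSK2 in corpuscles and 75.8 to 87.8% in skin. The balance of the convertases turned between corpuscle libraries: PCSK1 was 0.0719, 0.0249, 1.84, 4.68 and 5.03 times PCSK2 per kilobase in corpuscles 1 to 5, and 0.00797 to 0.0603 times in skin. PCSK1 was thus the more abundant convertase in corpuscles 3, 4 and 5, and PCSK2 in corpuscles 1 and 2 and in all skin libraries. In corpuscles 1 and 3 both were low, PCSK1 at 0.0933 and 1.32 CPM per kilobase and PCSK2 at 1.30 and 0.715. These levels lay under 1.39 CPM per kilobase, the corpuscle median of 45 genes of liver, retina and germ cells, so the order there is uncertain. CHGB was 57.8 to 457 times CPE per kilobase in corpuscles and 2.71 to 6.04 times in skin.

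**Figure D4:**
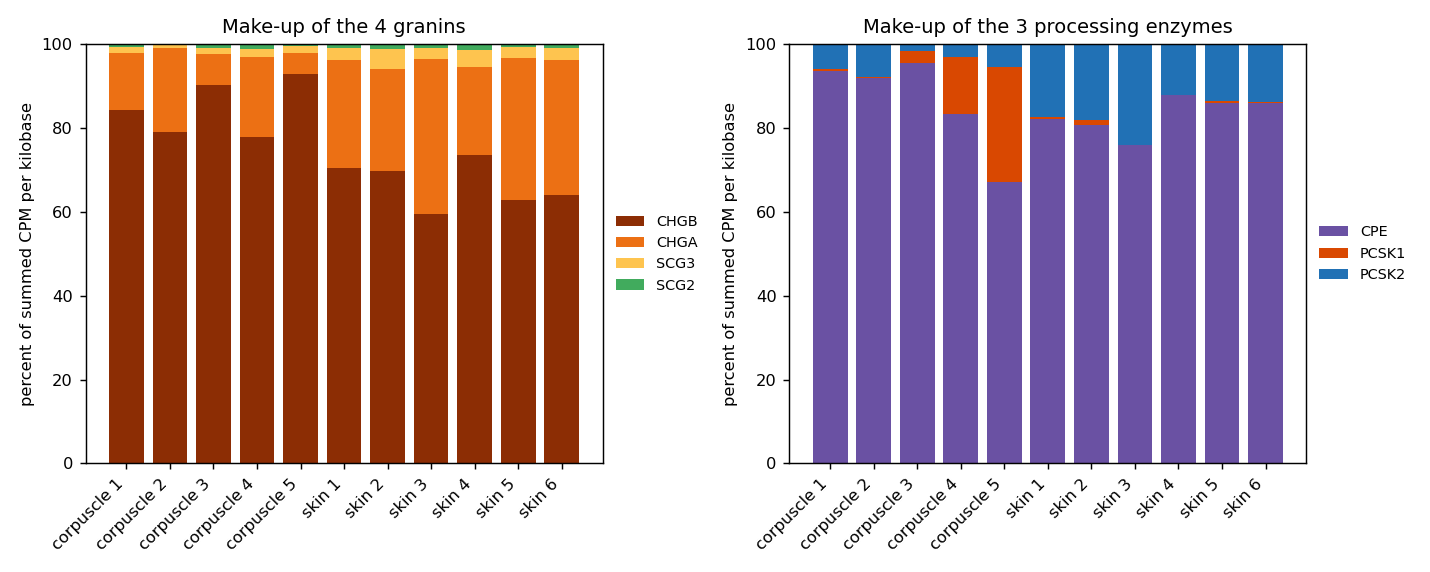
Percent of the summed CPM per kilobase that each gene takes in every library, for the 4 granins (left panel) and the 3 processing enzymes (right panel); corpuscles 1 to 5 are left of skin 1 to 6. CHGB takes 77.9 to 92.9% of the granin sum in corpuscles and 59.4 to 73.6% in skin, and PCSK1 takes a visible part of the enzyme sum in corpuscles 4 and 5, at 13.8 and 27.4%.

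In absolute levels per kilobase the order in corpuscles was CHGB (7036 ± 3423), CHGA (1111 ± 1058), SCG3 (103 ± 35.5), SCG2 (49.1 ± 27.2), CPE (33.5 ± 16.2), PCSK1 (2.71 ± 3.05) and PCSK2 (1.83 ± 1.59), as mean CPM per kilobase ± SD over 5 libraries. In skin the order was CHGB (217 ± 54.5), CHGA (99.6 ± 46.3), CPE (47.6 ± 4.33), SCG3 (9.94 ± 1.32), PCSK2 (9.40 ± 2.40), SCG2 (3.32 ± 0.618) and PCSK1 (0.243 ± 0.194), over 6 libraries. Neighbours whose ranges over libraries overlapped were CHGB and CHGA, SCG3 and SCG2, SCG2 and CPE, and PCSK1 and PCSK2 in corpuscles, and CHGB and CHGA, CHGA and CPE, and SCG3 and PCSK2 in skin. Such ranges set different libraries against each other. Within every library CHGB lay above CHGA, and SCG3 above SCG2. The order of the other pairs named turned between libraries. As a measure of background, 45 genes of liver, retina and germ cells had a median of 1.39 CPM per kilobase in corpuscles and 0.22 in skin, with 95th percentiles of 3.57 and 5.68. These were taken over means of each group, not within a library. Summed, the 45 genes were at 374 CPM in corpuscle 4 and at 181 to 265 CPM in the other corpuscles. A single library below is thus not measured against its own background. PCSK1 lay above that percentile in corpuscles 4 and 5, at 6.11 and 5.90 CPM per kilobase, and below it in corpuscles 1 to 3 and in all skin libraries. PCSK2 lay above it in corpuscle 2, at 4.63 CPM per kilobase, and in all skin libraries, at 7.41 to 13.7, and below it in the other corpuscle libraries.

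The spread over libraries was wider in corpuscles, as it was for genes at large. The median SD of log2 levels was 0.80 over corpuscles and 0.23 over skin libraries. SCG3 varied least of the 7 in corpuscles, with an SD of 0.59, above that of 26.9% of all genes. CHGA varied more than most genes in both tissues, with an SD of 1.16 in corpuscles (above 79.2% of genes) and of 0.73 in skin (above 96.8%). CPE was among the steadier genes in skin, with an SD of 0.13 (above 17.1%).

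Profiles were compared by the Euclidean distance between log2 levels over the 11 libraries, each profile centred on its mean, among genes with a mean of at least 10 CPM (PCSK1, whose mean is lower, was compared with these genes). The 5 genes closest to CHGB were ATP6V0E2 at a distance of 1.03, TAC1 at 1.38, PLS1 at 1.43, PLSCR5 at 1.50 and SLC6A14 at 1.54. Of the other granins, SCG3 came at place 63, SCG2 at 70 and CHGA at 129 of 9972 genes. SCG2 and SCG3 were the closest pair among the 7, at 1.56, SCG3 being the fourth gene in order from SCG2. The 5 genes closest to PCSK2 were TBC1D8, AP1B1, PTPN23, GTF2H1 and TNKS1BP1, at 0.918 to 1.14. The closest gene to PCSK1 was PRIMPOL at 3.47, farther than the closest gene of any other member. The libraries share the corpuscle and skin difference, so these distances describe it together with the spread within each group.

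This list and those that follow were drawn up with earlier results of these data known. Genes are named by fold in the same fit or after their values were seen, so their adjusted p-values are descriptive. Of 22 other genes of prohormone processing tested, 3 rose and 6 fell in corpuscles, or 13.6 and 27.3%, with a median log2 fold change of -0.42, against 33.0 and 23.5% of all genes. CPD, a carboxypeptidase of the trans-Golgi network, fell by 2.73 ± 0.38 (SE) on the log2 scale (edgeR adjusted p = 2.6e-05), to 11.9 ± 8.18 CPM in corpuscles against 79.3 ± 15.2 CPM in skin (here and for the genes that follow, SD over 5 corpuscle and 6 skin libraries). FURIN, the convertase of the constitutive pathway, had a log2 fold change of -1.93 ± 0.40 (edgeR adjusted p = 0.000821), and PCSK6, a related convertase, of -1.69 ± 0.40 (edgeR adjusted p = 0.00231). QPCTL, a glutaminyl cyclase of the Golgi, fell by 1.14 ± 0.35 on the log2 scale. PAM, which amidates the ends of peptides, did not pass, with 209 ± 107 CPM in corpuscles and 151 ± 35.4 CPM in skin (named after its values were seen; log2 fold change 0.47 ± 0.31, edgeR adjusted p = 0.206). Among genes named after their values were seen, the protease CTSL rose (0.87 ± 0.21), and PCSK4 rose to 150 reads over the corpuscle libraries, against 3 reads over the skin libraries, below the 95th percentile of the genes of unrelated organs. In the second subset none of the 6 that fell passed (CPD -2.22, adjusted p = 0.107), and neither did CTSL (0.68, adjusted p = 0.328). FURIN was at -2.44 in the first subset and -1.32 in the second (adjusted p = 0.131 in the second), and PCSK6 at -2.36 and -1.01 (adjusted p = 0.151 in the second).

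Of 54 genes of the granule membrane, its sorting and its release tested, 28 rose and 5 fell, or 51.9 and 9.26%, against 33.0 and 23.5% of all genes and 71.4 and 8.57% of the liver, retina and germ cell genes, with a median log2 fold change of 1.05. CYB561, the electron carrier of granule membranes, rose by 6.11 ± 0.72 to 20.4 ± 15.5 CPM in corpuscles, against 0.291 ± 0.188 CPM in skin (edgeR adjusted p = 6.17e-06). SNAP25, the SNARE protein of regulated release, was at 70.2, 36.5, 114, 52.6 and 96.4 CPM in corpuscles 1 to 5 and at 1.19 to 3.19 CPM in skin (log2 fold change 4.99 ± 0.41). SV2B, which sits in the membrane of secretory vesicles, had 162 to 476 CPM in corpuscles and 10.0 to 14.0 CPM in skin (4.58 ± 0.31). The synaptotagmin-like gene SYTL5 and the synaptotagmin SYT10 rose by 4.39 ± 0.49 and 3.83 ± 0.60, to means of 8.28 and 13.0 CPM. Of genes picked once their values were known, the phosphatase-like granule membrane genes PTPRN and PTPRN2 rose by 1.86 ± 0.34 and 2.52 ± 0.46, and ARFIP1, SORCS1 and CADPS2 fell (log2 fold changes -2.04, -1.77 and -1.52). Of the 28, 11 did not exceed the 95th percentile of the genes of unrelated organs, SYTL5, SYT10 and PTPRN2 among them. In the second subset 14 of the list rose and 1 fell, and ARFIP1 (-2.11, adjusted p = 0.138) and CADPS2 (-0.61, adjusted p = 0.523) did not pass. Over all genes 1514 fell in that subset, against 3437 with all libraries. In the first and the second subset the log2 fold changes were 6.69 and 5.18 for CYB561, 4.92 and 3.87 for SV2B, 3.72 and 5.44 for SYTL5, 3.05 and 5.88 for SYT10, 1.66 and 3.48 for PTPRN2, and -2.19 and -0.61 for CADPS2.

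Many peptide precursors are cargo of such granules. A place on this list does not show that a product is stored there. In corpuscles 21 of 40 tested rose and 9 fell, or 52.5 and 22.5%, against 33.0 and 23.5% of all genes and 71.4 and 8.57% of the genes of unrelated organs. Their median log2 fold change was 1.61, and 11 of the 21 did not exceed that percentile. A gene can pass the filter on low counts through corpuscle libraries alone, as UCN3 did (94 reads there and 0 in skin). Its call as higher was then nearly fixed. The same can hold on the other lists, among the genes of unrelated organs and among all genes. The shares that rose are therefore a description and not a test of a list. TAC1, the substance P precursor, was at 3361, 5812, 5308, 1432 and 1380 CPM in corpuscles 1 to 5 and at 56.7 to 134 CPM in skin (log2 fold change 5.08 ± 0.42, edgeR adjusted p = 3.2e-07). NPB and GHRL, precursors of neuropeptide B and ghrelin, rose by 4.67 ± 0.53 and 4.31 ± 0.63, to 6.07 and 14.2 CPM. CRH, the corticotropin-releasing hormone gene, rose, with 310 reads over the corpuscle libraries and 5 over the skin libraries. ADCYAP1, the PACAP precursor named after its value was seen, rose by 2.46 ± 0.33, to 98.4 ± 45.1 CPM in corpuscles against 17.9 ± 3.87 CPM in skin. Of the 9 that fell, also named after their values were seen, NTS was at 3.72 ± 3.78 CPM in corpuscles against 51.6 ± 31.2 CPM in skin. IGF1 was at 16.5 ± 10.9 against 154 ± 75.0 CPM, and EDN3 at 19.4 ± 13.1 against 106 ± 13.4 CPM. In the first and the second subset the log2 fold changes were 5.53 and 3.88 for TAC1, 3.92 and 6.24 for NPB, 3.49 and 5.28 for GHRL, and 1.92 and 3.17 for ADCYAP1. With a minimum of 5 CPM 7 rose and 5 fell, and with no filter on low counts 38 rose. Each filter tests a different number of the 58 precursors found, so these counts are not shares of the 40.

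Of 29 transcription regulators of neuroendocrine and neuronal genes tested, 17 rose and 7 fell, or 58.6 and 24.1%, against 33.0 and 23.5% of all genes and 71.4 and 8.57% of the genes of unrelated organs, with a median log2 fold change of 1.48. ISL1, a LIM homeodomain factor, was at 163, 211, 230, 56.0 and 56.0 CPM in corpuscles 1 to 5 and at 6.71 to 18.6 CPM in skin (log2 fold change 3.63 ± 0.43, edgeR adjusted p = 6.32e-06). The related zinc finger genes MYT1, MYT1L and ST18 rose by 3.19 ± 0.43, 3.84 ± 0.42 and 5.67 ± 0.78 (4.92 without corpuscle 2 for ST18), at 12.4 to 21.8 CPM on average. NEUROD6 rose, with 330 reads over the corpuscle libraries and 3 over the skin libraries. Named after their values were seen, INSM1, a factor of neuroendocrine differentiation, and CREM, of the cyclic AMP response, rose by 3.14 ± 0.38 and 2.28 ± 0.28, and EGR1, an immediate early gene, fell by 2.39 ± 0.27 on the log2 scale. REST, a repressor of neuronal genes chosen likewise, had 115 ± 50.3 CPM in corpuscles, against 84.7 ± 10.4 CPM in skin, and did not pass (0.44 ± 0.26, edgeR adjusted p = 0.168), but did in the first subset (0.65, adjusted p = 0.0474). Of the 17, 11 did not exceed the percentile of the genes of unrelated organs, MYT1, MYT1L, ST18 and NEUROD6 among them. In the first and the second subset the log2 fold changes were 4.48 and 1.80 for ISL1, 4.35 and 3.00 for MYT1L, and 3.55 and 2.32 for INSM1.

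**Figure D5:**
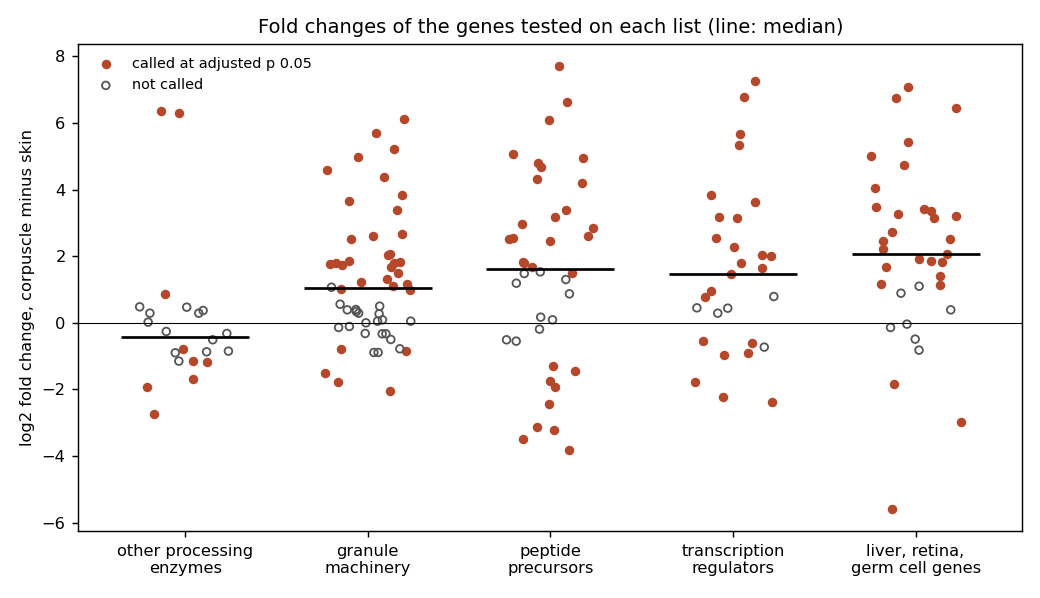
Log2 fold change (corpuscle minus skin) of each gene tested on the 4 pathway lists and on the list of liver, retina and germ cell genes; filled points were called at an adjusted p of 0.05, open points were not, and lines are medians. The medians are -0.42 for other processing enzymes, 1.05 for granule machinery, 1.61 for peptide precursors, 1.48 for regulators and 2.08 for the genes of unrelated organs, whose levels are low.

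Of 35 liver, retina and germ cell genes tested, 25 rose and 3 fell. The summed level of the 45 found was 181 to 374 CPM in corpuscles and 224 to 431 CPM in skin. Of the 3 that fell, APOA1 averaged 125 CPM in skin against 2.55 CPM in corpuscles, and TF 64.6 against 8.2 CPM, so the skin sum rests largely on these genes. The part of this background in the list counts above was not tested. Of the marker lists of other cells, those of Merkel cells, of axons and, by 3 to 2, of immune cells had more genes higher than lower. Of 22 Merkel cell genes tested, without the granins, 15 rose and 0 fell by edgeR, or 68.2 and 0%. The shares were 33.0 and 23.5% for all genes and 71.4 and 8.57% for the genes of unrelated organs. Of the Merkel genes, 0 were lower at an unadjusted p under 0.05 and 0 by DESeq2 or limma-voom. In the second subset, however, 2 were called lower, and 1 was when corpuscle 2 or 4 was left out. No gene of the list was at 0 in all libraries of a group, and 6 granule and 5 regulator genes are also on this list. The summed level of the list was 6668, 7608, 12481, 1898 and 2203 CPM in corpuscles 1 to 5 and 838 to 1241 CPM in skin. KRT20, a keratin of Merkel cells named after its values were seen, averaged 3736 ± 3540 CPM in corpuscles, against 147 ± 40.5 CPM in skin. Among the 7 not called, and named likewise, KRT8 averaged 3.23 CPM in corpuscles against 5.77 CPM in skin, and PIEZO2 279 against 365 CPM. The sum, to which KRT20 contributes most, was lowest in corpuscles 4 and 5, while SNAP25 of the same list was lowest in corpuscle 2. The log2 fold change of KRT20 was 5.27 in the first subset and 2.12 in the second. Of 21 sensory neuron and axon genes tested, 11 rose and 3 fell, or 52.4 and 14.3%. Their summed level was 684 to 2146 CPM in corpuscles and 377 to 449 CPM in skin. UCHL1, also on the Merkel list, and THY1, also on the fibroblast list, contributed most in corpuscles, averaging 672 and 316 CPM. PRPH, MAPT and CNTN1 fell. Of the neurofilament genes NEFL rose, and NEFM and NEFH were not called. Schwann cell genes gave 2 higher and 9 lower of 16, keratinocyte genes 2 and 7 of 16, endothelial genes 0 and 20 of 22 (0 higher also at an unadjusted p under 0.05, by DESeq2 and by limma-voom), fibroblast genes 1 and 14 of 21, and immune genes 3 and 2 of 12. The part of any of these cell types in the granin levels was not tested.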

How the data were processed

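The authors deposited unnormalized whole-number read counts for each gene. The submitters' processing notes name these tools: STAR 2.7.7a, Subread 2.0.1 with featureCounts, Trimmomatic 0.39, CASAVA 1.8.2, R 4.2.1 and edgeR 3.38.4. The build, annotation and strand setting are not given in the sources used here. The deposited normalized counts, a signal, equal the count divided by one factor per library, and the deposited FPKM values are the same signal divided by a fixed length for each gene in kilobases, which gave the lengths. The deposited log2 fold change, p-value and false discovery rate are the authors' comparison of skin with corpuscle.

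All genes of the 11 libraries entered 1 robust quasi-likelihood fit without covariates (edgeR 4.0.16, R 4.3.3), after filterByExpr and TMM scaling, with a Benjamini-Hochberg threshold of 0.05. In simulated counts of the same design (corpuscle against skin, 14638 genes) 54% of 100 planted 4-fold changes and 7% of 100 planted 2-fold changes were called, with 3 false calls among 64. Far fewer genes were changed there than the 8263 called in the real fit, which makes the adjusted threshold stricter. The simulated shares therefore do not measure how many changes the real fit finds. At the smallest total, 5766279 counts, 3 counts equal 0.520 CPM, and at the largest 0.143 CPM. Replicates differed by a chi-square of at least 11.6 per degree of freedom, more than counting error alone gives, so libraries were not merged. This cannot tell separate isolations from separate preparations of 1 isolation. Skin 5 and 6 were the closest pair, at 11.6, against 20.9 to 51.9 for the other skin pairs. Of 4214 locus identifiers, 3196 matched RefSeq by gene ID and 603 gained a symbol, CYB561 and SORCS1 among them, used for the lists only. No label says that same-numbered corpuscle and skin libraries pair, so replicate number was used only as an alternative block. Deviations of these pairs correlated at -0.164 to 0.151. Differently numbered pairs were not compared, so these values cannot exclude pairing.

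The members and lists were chosen with earlier results of these data known. Named by rule are the members, up to 5 called genes per pathway list by fold (no overlap between groups, at least 5 CPM in the higher one) and the 5 nearest profiles to CHGB and to PCSK2. Not every gene chosen this way is reported here. Profiles used log2(CPM + 0.5). Alternatives tried were DESeq2 1.42.0, limma-voom (limma 3.58.1), other scalings and filters, a replicate block, library subsets and leaving out each library. Figures were drawn with matplotlib 3.10.9.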

Additional observations from a re-analysis of the deposited data

Results flagged for a closer look

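Among 16 groups of values examined (7 genes and the granin share, each in corpuscles and in skin), 3 held a library far from the rest by Dixon's test. For normally distributed values chance does so in about 1 group of 20. The values here were not log-transformed, and the granin share is mostly CHGB, so that rate is only a rough guide. Raw levels with a long upper tail are flagged more readily, and log levels were not examined this way. The 3 are therefore listed for a closer look and are not a test of the genes. CHGA was at 5767 CPM in corpuscle 2, with the next corpuscle library at 2025 CPM. PCSK2 was at 17.4 CPM in the same library, with the next at 4.92 CPM. PCSK1 was at 3.56 CPM in skin 2, with the next skin library at 1.26 CPM. The gaps were 0.739, 0.849 and 0.760 of the range of the group, against critical values of 0.71 for 5 libraries and 0.625 for 6.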

How the results depend on the processing

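The members' folds kept their sign under all 11 other settings and without each of the 11 libraries: CHGB ran from 4.39 to 5.38 on the log2 scale, SCG2 from 3.43 to 4.13, SCG3 from 3.20 to 3.59, CHGA from 1.92 to 4.11, PCSK1 from 0.95 to 4.83, PCSK2 from -3.07 to -2.14 and CPE from -0.93 to -0.28. For the granins and PCSK2 the groups do not overlap, so leaving out a library could hardly turn the sign. For these genes only the ranges are of use, and the kept sign adds no support. Without each library in turn the mean granin share was 3.53 to 4.91% in corpuscles and 0.147 to 0.168% in skin.

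Over all genes 3381 to 6185 rose and 1514 to 4209 fell under the other settings, so the list counts below are not set apart from that movement. The counts that moved by over 1.5 times are these, and the cause was not tested. With a minimum of 5 CPM, which tests fewer genes, 3 granule genes fell, 7 peptide precursors rose and 5 fell, 11 regulators rose and 1 keratinocyte gene rose; with no filter 38 precursors rose. With limma-voom 10 processing enzymes fell. With the replicate block, on replicates 1 to 5, 1 Schwann and 1 keratinocyte gene rose. Within corpuscles 1 to 3 and skin 1 to 4, 5 axon and 4 immune genes fell and 1 keratinocyte gene rose. Within corpuscles 4 and 5 and skin 5 and 6, with fewer libraries, 1514 genes fell, 0 processing enzymes fell, 14 granule genes rose and 1 fell, 5 precursors and 3 regulators fell, 2 Merkel genes fell, 5 axon genes rose and 1 fell, 1 Schwann gene rose and 4 fell, 0 keratinocyte genes rose, 0 fibroblast genes rose and 9 fell, and 1 immune gene fell.

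Without each library in turn, 3 to 5 processing enzymes rose (5 without corpuscle 4), 5 to 8 granule genes fell (8 without corpuscle 4), 0 to 1 Merkel genes fell (1 without corpuscle 2 or 4), 2 to 5 axon genes fell (5 without corpuscle 4) and 1 to 3 Schwann genes rose (1 without skin 4, 5 or 6). Over all genes 3705 rose and 3300 fell with the replicate block, against 4826 and 3437 without it. Upper-quartile factors moved the log2 fold changes of 45 genes followed by a median of 0.14. Of these genes outside the members, the block ended the call of CREB1 alone (adjusted p = 0.0892). No sequence features were examined. Few reads limit PCSK1, at 6 to 19 in 2 corpuscle and 5 skin libraries, while corpuscle 4, with the smallest total, held 220.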
